A study of Mus musculus with 10 samples.

Results

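The interval from 1 to 3 hours after NIH3T3 cells were moved from 38 to 33 °C was examined, as the 3 h sample against the 1 h sample of the cooling course. These are 2 of the 10 samples of the study, which follows a cooling course (38 to 33 °C) and a warming course (33 to 38 °C) at 0, 1, 3, 6 and 9 h, with 1 sample at each time. NIH3T3 is an established mouse embryonic fibroblast line, used here as wild-type cells without any added agent. The cells were plated at 37 °C for 4 h, held at 38 °C for 16 h and then cooled for 1 or 3 h, so both samples had passed through the same 38 °C period. No sample of this course was kept at 38 °C for a further 1 or 3 h. Time at 33 °C and time since plating therefore cannot be told apart. The warming samples used for comparison were held at 33 °C for 16 h and moved to 38 °C for 1 or 3 h. Ribosome-depleted total RNA was sequenced, so that reads from spliced RNA and from introns were both captured.

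Each of the 2 cooling samples compared, at 1 and 3 h, carried 3 exon columns and 3 intron columns, numbered 5, 10 and 11. The numbers are called series here, and the labels do not say whether they stand for separate cultures. The 3 columns of a sample were counted as repeats of 1 sample, and the difference of 3 h minus 1 h was taken within each series on the log2 scale of CPM plus 0.5, where CPM is reads scaled to a common column total. A gene was called when that difference was at least 1.5-fold, the same way, in all 3 series, and "rose" and "fell" are used below only for such calls. Every ± is the SD over the 3 series, and with 1 sample per time no p-value for the change between the times is given.

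As background, mild cold raises a small set of RNA-binding proteins in mammalian cells. Cirbp, the cold-inducible RNA-binding protein, and Rbm3 are the best known of them, and Cirbp also rises and falls with body temperature through the day. Introns are removed from new transcripts soon after they are made, so intron reads follow recent transcription and splicing. Exon reads come from mature RNA and also from RNA not yet spliced. Mature RNA follows synthesis after a delay set by RNA stability. Clock genes such as Cry1, Cry2 and Nr1d1 form the feedback loops of the circadian clock, which body temperature can set in fibroblasts.

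The columns held 24945094 to 39609596 exon reads and 19223839 to 23464952 intron reads, so the minimum mean of 2 CPM corresponds to 49.9 to 79.2 exon reads in a column. The 3 h minus 1 h differences were small for most genes, with a median over all tested genes of -0.02 for exons and a median SD over series of 0.14. Series 5 stood apart from the other two: across 10534 genes its exon differences had Pearson's r of 0.35 with series 10 and 0.13 with series 11, against 0.57 between 10 and 11, and genes are not independent replicates. All 12 fibroblast identity markers passed the filter, with a summed exon level of 22528 to 29411 CPM at 1 h and 22139 to 30876 CPM at 3 h. Of the marker lists of other cell types, epithelial genes summed to 24.8 to 47.6 CPM at 1 h and 30.0 to 47.6 CPM at 3 h, with Cldn4, Epcam and Krt5 at 0 in all 6 columns. Macrophage genes, 3 of 6 past the filter and none at 0 throughout, summed to 20.6 to 35.8 CPM at 1 h and 20.4 to 36.0 CPM at 3 h. Endothelial genes summed to at most 6.81 CPM, muscle genes to at most 20.2 CPM with Myod1 at 0 throughout, and adipocyte genes to at most 0.11 CPM with Cfd and Lep at 0. Some markers were higher in series 5 and others lower. In series 5, 10 and 11 the muscle marker Tnnt2 had 17.4, 2.71 and 4.37 CPM at 1 h and 18.2, 3.61 and 4.04 CPM at 3 h. The macrophage marker Lyz2 had 20.1, 4.47 and 4.20 CPM and then 19.2, 5.30 and 4.44 CPM. Another macrophage marker, Cd14, had 12.2, 13.4 and 17.0 CPM and then 13.8, 13.3 and 16.0 CPM. Lower in series 5 was the muscle marker Des, with 1.46, 3.21 and 3.15 CPM and then 1.55, 2.93 and 2.91 CPM. So was the epithelial marker Krt14, with 24.1, 37.7 and 43.9 CPM and then 29.1, 37.8 and 45.2 CPM. Levels are shares of the reads, so fewer cells of a kind and less RNA per cell cannot be told apart.

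Few genes changed by the size rule in this interval. On exons, 21 of 10534 genes rose (0.199%) and 26 fell (0.247%). On introns, 17 of 10900 genes rose (0.156%) and 19 fell (0.174%). The exon-to-intron ratio, which is the exon difference minus the intron difference, rose in 35 of 9605 genes (0.364%) and fell in 22 (0.229%). An analysis over the 6 columns with edgeR's quasi-likelihood test and the series as a block called more at an adjusted p under 0.05, namely 149 exon genes up (1.41%) and 185 down (1.76%), and 179 intron genes up (1.64%) and 237 down (2.17%). Those p-values measure the spread between columns. That spread may be technical, as the labels do not say whether columns stand for separate cultures. All 47 exon calls and all 36 intron calls of the size rule were among them.

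**Figure D1:**
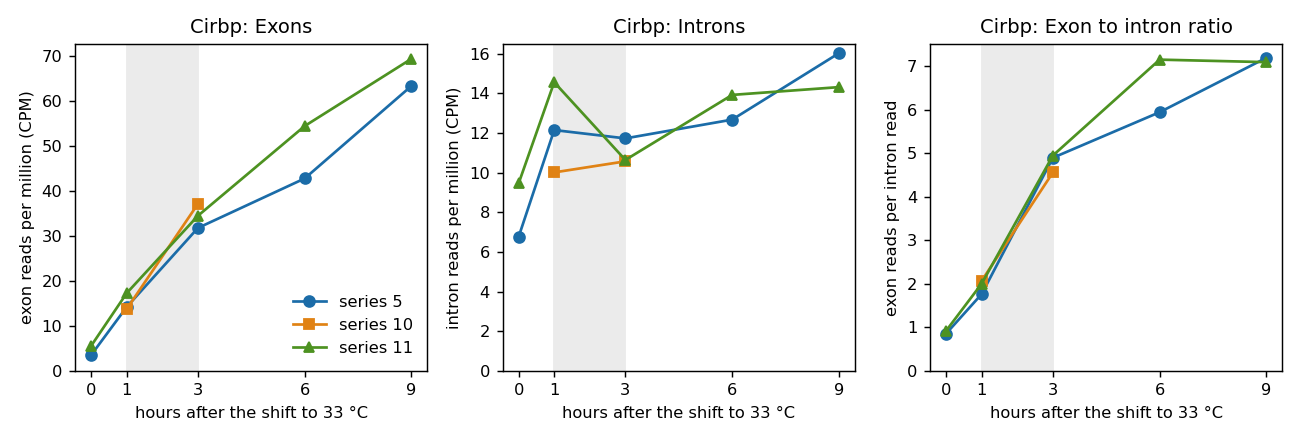
Cirbp exon CPM, intron CPM and exon reads per intron read (vertical axes) against hours after the shift to 33 °C; each line is 1 column series, and the shaded band is 1 to 3 h. Exon CPM went from 13.8 to 17.3 at 1 h to 31.8 to 37.1 at 3 h, while intron CPM at 3 h (10.6 to 11.7) lay within the 1 h range.

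Cirbp showed the largest exon rise of all called genes. Its exon level was 14.2, 13.8 and 17.3 CPM at 1 h in series 5, 10 and 11, and 31.8, 37.1 and 34.5 CPM at 3 h. The lowest 3 h value was above the highest 1 h value, and the difference was 1.17 ± 0.21 on the log2 scale, or 2.25-fold. Intron reads of Cirbp did not follow, with 12.1, 10.0 and 14.6 CPM at 1 h and 11.7, 10.6 and 10.6 CPM at 3 h, a difference of -0.14 ± 0.27, or 0.01 without series 11. There were 1.76 to 2.07 exon reads per intron read at 1 h and 4.90, 4.56 and 4.95 at 3 h, so the ratio rose by 1.31 ± 0.12 on the log2 scale. Over the course, Cirbp exons were already higher at 1 h than at 0 h, by 1.88 in series 5 and 1.56 in series 11 on the log2 scale. The next steps, 3 to 6 h and 6 to 9 h, were 0.42 and 0.56 in series 5 and 0.65 and 0.35 in series 11. Neighbouring intervals share the 1 h or the 3 h sample, so their values are set side by side only. Introns of Cirbp were higher at 1 h than at 0 h by 0.80 and 0.60, the interval in which exons also gained most.

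Rbm3, the other cold-inducible RNA-binding protein, was not called. Its exon level was 109, 64.3 and 74.3 CPM at 1 h and 167, 71.6 and 82.9 CPM at 3 h, so the gain was largest in series 5 and the times overlapped. The difference was 0.31 ± 0.27, with every series higher at 3 h. Over the course, Rbm3 exons went from 51.5 and 80.5 CPM at 0 h to 206 and 159 CPM at 9 h in series 5 and 11. The gene is overlapped on the other strand by Rbm3os, and the labels do not say how strand entered the counting. Of the 9 measured genes of the list of cold-inducible RNA-binding proteins, Cirbp alone was called, and the splicing factor Srsf5 was higher in every series (0.49 ± 0.11) while Rbm5 was lower in every series (-0.50 ± 0.15).

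The region before a RefSeq start of Cirbp is shown because it holds the letters TCCCCGCC, described as a mild cold response element of this gene. The capitals mark them, and the stretch is chr10:80167589-80167708 on the plus strand of GRCm38.p6 (RefSeq) and begins at base -250 before the start.
Cirbp: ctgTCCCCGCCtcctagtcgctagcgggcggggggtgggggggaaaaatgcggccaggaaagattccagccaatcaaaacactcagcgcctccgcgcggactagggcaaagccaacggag
The element starts at base -247. Searched on both strands of the 250 bases before the start, TCCCCGCC occurs in 4.6% of 32851 RefSeq promoters and in 10.3% of the 7520 genes tested on exons that have a promoter in the table. It was found in 2 of the 13 matched genes that rose (Bend3 and Cirbp) and in 3 of the 18 matched genes that fell (Btg2, Ccdc51 and Thap2), so it is present on both sides.

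**Figure D2:**
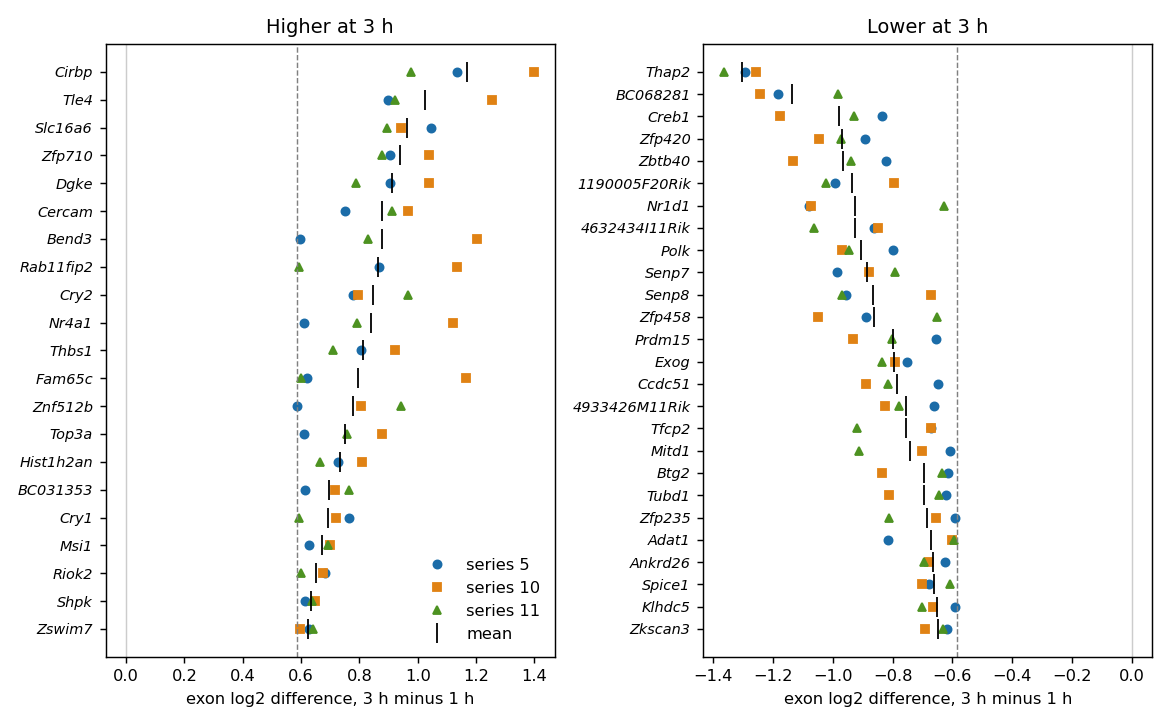
Exon log2 difference, 3 h minus 1 h (horizontal axis), of the 21 genes that rose and the 26 that fell; symbols are the 3 series, the bar is their mean and the dashed line is 1.5-fold. Cirbp (mean 1.17) and Thap2 (mean -1.30) lie furthest from 0.

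The other genes that rose on exons had varied roles, among them transcription regulators, signalling proteins and a matrix protein. Tle4, a Groucho-family co-repressor, had 7.11, 12.7 and 14.4 CPM at 1 h and 13.7, 31.0 and 27.7 CPM at 3 h, a difference of 1.02 ± 0.20. Every series was higher at 3 h, although series 5 at 3 h (13.7 CPM) lay below series 11 at 1 h (14.4 CPM). Zfp710, a zinc finger protein, rose by 0.94 ± 0.09, and Bend3, a chromatin-bound repressor, by 0.88 ± 0.31. Dgke, a diacylglycerol kinase that ends diacylglycerol signalling, went from 22.8, 30.1 and 31.3 CPM to 43.1, 62.5 and 54.3 CPM, a rise of 0.91 ± 0.13 with no overlap between the times. Rab11fip2, an adaptor of recycling endosomes, rose by 0.87 ± 0.27. Nr4a1, an orphan nuclear receptor and immediate early gene, had 7.51, 11.1 and 16.5 CPM at 1 h and 11.7, 24.7 and 28.9 CPM at 3 h, a rise of 0.84 ± 0.26. Thbs1, the matricellular glycoprotein thrombospondin-1, rose from 110, 75.7 and 63.9 CPM to 193, 144 and 105 CPM, or by 0.81 ± 0.11. Znf512b, Top3a (a DNA topoisomerase), the core histone gene Hist1h2an, BC031353 and Riok2 (a kinase of ribosome maturation) rose by 0.65 to 0.78. The 6 further genes with less signal, Slc16a6, Cercam, Fam65c, Msi1, Shpk and Zswim7, rose by 0.62 to 0.96 from 1 h levels of at most 2.45 CPM. The least extreme of the called differences was 0.59 in Znf512b, and Nipal1, just outside the rule, had 0.58.

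Both cryptochromes, the repressors at the centre of the circadian loop, rose on exons. Cry2 went from 18.1, 29.1 and 26.5 CPM to 31.4, 50.9 and 52.2 CPM, a rise of 0.85 ± 0.10. Cry1 went from 11.9, 16.2 and 17.0 CPM to 20.5, 27.0 and 25.8 CPM, a rise of 0.69 ± 0.09 with no overlap between the times. Nr1d1, which encodes the repressor REV-ERB alpha, fell from 112, 124 and 80.4 CPM to 53, 58.8 and 51.9 CPM, or by 0.93 ± 0.26 on the log2 scale. Its call was lost under TMM scaling (-0.91) and under DESeq2 size factors (-0.91), as series 11 lies near the threshold (-0.63). Nr1d1 overlaps Thra on the other strand. The other measured clock genes were not called: Dbp, an output transcription factor, was lower in every series (-0.42 ± 0.05), as was Clock (-0.23 ± 0.01), and Per2 was higher in every series (0.30 ± 0.12). Of the 14 clock genes measured, 2 rose and 1 fell, and the list median was -0.06 against -0.02 over all genes, and 0.03 with a minimum of 0.5 CPM.

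The regions before RefSeq starts of Nr4a1, Btg2 and Cry1 are shown because these genes changed in this interval and carry motifs linked to signalling and to the clock. In Nr4a1 and Btg2 the capitals mark TGACG, the core of the cAMP response element that CREB proteins bind, or its reverse complement CGTCA. In Cry1 they mark the E-box CACGTG that CLOCK and ARNTL bind. The stretches are chr15:101266596-101266825 (plus strand), chr1:134079256-134079355 (minus strand) and chr10:85185065-85185164 (minus strand) of GRCm38.p6, from RefSeq, all written 5′ to 3′ along the gene.
Nr4a1: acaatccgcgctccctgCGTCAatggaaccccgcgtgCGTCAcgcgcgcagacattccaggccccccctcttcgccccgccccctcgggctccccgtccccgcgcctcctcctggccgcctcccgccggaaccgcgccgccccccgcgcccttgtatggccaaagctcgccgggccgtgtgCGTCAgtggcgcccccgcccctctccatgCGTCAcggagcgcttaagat
Btg2: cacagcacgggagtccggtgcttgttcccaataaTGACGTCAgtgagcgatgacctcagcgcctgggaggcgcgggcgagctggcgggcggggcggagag
Cry1: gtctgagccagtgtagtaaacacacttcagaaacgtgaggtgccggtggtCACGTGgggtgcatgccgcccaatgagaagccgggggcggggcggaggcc
Nr4a1 holds the core at 4 places, starting at bases -233, -213, -69 and -40. In GENCODE M21 the Nr4a1 gene begins at 101254269, so this stretch also lies within the annotated gene. Btg2 holds a palindrome of 2 overlapping cores starting at -166 and -163, and Cry1 holds its E-box at -60. Searched on both strands, TGACG occurs in 17.8% of all RefSeq promoters and in 32.6% of tested genes, and CACGTG in 6.0% and 10.4%. TGACG was found in 8 of the 13 matched genes that rose, Cirbp, Cry1, Cry2, Dgke, Nr4a1, Rab11fip2, Riok2 and Zswim7, and in 6 of the 18 that fell. CACGTG was found in Bend3, Cry1 and Tle4 among those that rose and in Senp8 among those that fell. AGGTCA, the core letters bound by ROR and REV-ERB receptors, was in 14.0% of all promoters and in 12.1% of tested genes. It was in none of the 13 and in 3 of the 18. A match is a description of the letters and not of binding.

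The genes that fell on exons included the transcription factor Creb1 and several zinc finger genes. Thap2, a THAP-domain zinc finger gene, showed the largest fall, from 16.6, 13.6 and 15.4 CPM at 1 h to 6.49, 5.38 and 5.69 CPM at 3 h. Its difference was -1.30 ± 0.05, and it was the single exon gene past 2-fold in all 3 series. Creb1, the cAMP response element binding factor, fell from 68.0, 63.1 and 64.1 CPM to 37.9, 27.6 and 33.4 CPM, a difference of -0.98 ± 0.18 with no overlap. Zbtb40 had -0.96 ± 0.16, and Polk, a translesion DNA polymerase, went from 26.4, 28.0 and 24.9 CPM to 15, 14.1 and 12.7 CPM (-0.90 ± 0.09). Senp7 and Senp8, peptidases of the SUMO and NEDD8 systems, fell by 0.89 ± 0.10 and 0.86 ± 0.17. The genes known by clone names 1190005F20Rik, 4632434I11Rik and 4933426M11Rik had differences of -0.94 ± 0.12, -0.92 ± 0.12 and -0.76 ± 0.09. Zfp458, Prdm15, Exog, Ccdc51 and Tfcp2 fell by 0.75 to 0.86. The anti-proliferative p53 target Btg2 fell from 7.64, 12.9 and 12.3 CPM to 4.81, 7.02 and 7.74 CPM, a difference of -0.69 ± 0.12. The 10 remaining genes had means from -1.14 (BC068281) to -0.65 (Zkscan3), among them the zinc finger genes Zfp420, Zfp235 and Zkscan3. Just inside the rule was Klhdc5 (-0.59) and just outside Ncapg (-0.58).

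Intron differences of these genes between 1 and 3 h had medians nearer to 0 than their exon differences. The genes were chosen by the exon differences of this interval, so large exon medians follow from the choice. Of the 20 genes that rose on exons and had introns measured, none rose on introns, their median intron difference was -0.11, and the ratio rose in 11. Of the 25 that fell and had introns measured, Nr1d1 alone fell on introns (-1.04 ± 0.43, from 27.7, 23.3 and 20.5 to 17.1, 7.87 and 10.7 CPM), the median was -0.14 and the ratio fell in 10. Over all genes tested on introns 0.156% rose and 0.174% fell, and the exon medians of all 21 and 26 genes were 0.81 and -0.80. Introns of the genes that fell were lower in 18 of 25 in series 5 and in 22 of 25 in series 11, against 3623 and 6510 of 9605 genes, and those of the genes that rose were higher in 11 and 5 of 20, against 5982 and 3095. Thbs1 was nearest to moving on both, with introns at 21.2, 12.6 and 11.3 CPM and then 45, 18.5 and 18.9 CPM (0.77 ± 0.27) and a ratio difference of 0.04 ± 0.33. Creb1 (-0.57 ± 0.13) and Zbtb40 (-0.70 ± 0.14) also had lower introns in every series without being called.

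Introns of the same genes had differed one step earlier in the course. For the genes that rose on exons from 1 to 3 h, the median intron difference from 0 to 1 h was 0.95 in series 5 and 0.79 in series 11, against 0.11 and -0.18 from 1 to 3 h. Their exons had medians of 0.33 and 0.28 from 0 to 1 h and 0.72 and 0.78 from 1 to 3 h. For the genes that fell, the intron medians were -0.75 and -0.57 from 0 to 1 h and -0.07 and -0.25 from 1 to 3 h, while the exon medians were -0.34 and -0.06, then -0.80 and -0.82. Over the 9605 genes measured on both, the intron medians from 0 to 1 h were -0.06 and 0.03. The 1 h sample enters both intervals, so these values are given side by side with no test, and series 10 has no 0 h column. The genes were chosen for their exon difference from 1 to 3 h, so the larger exon medians of that interval follow from the choice.

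**Figure D3:**
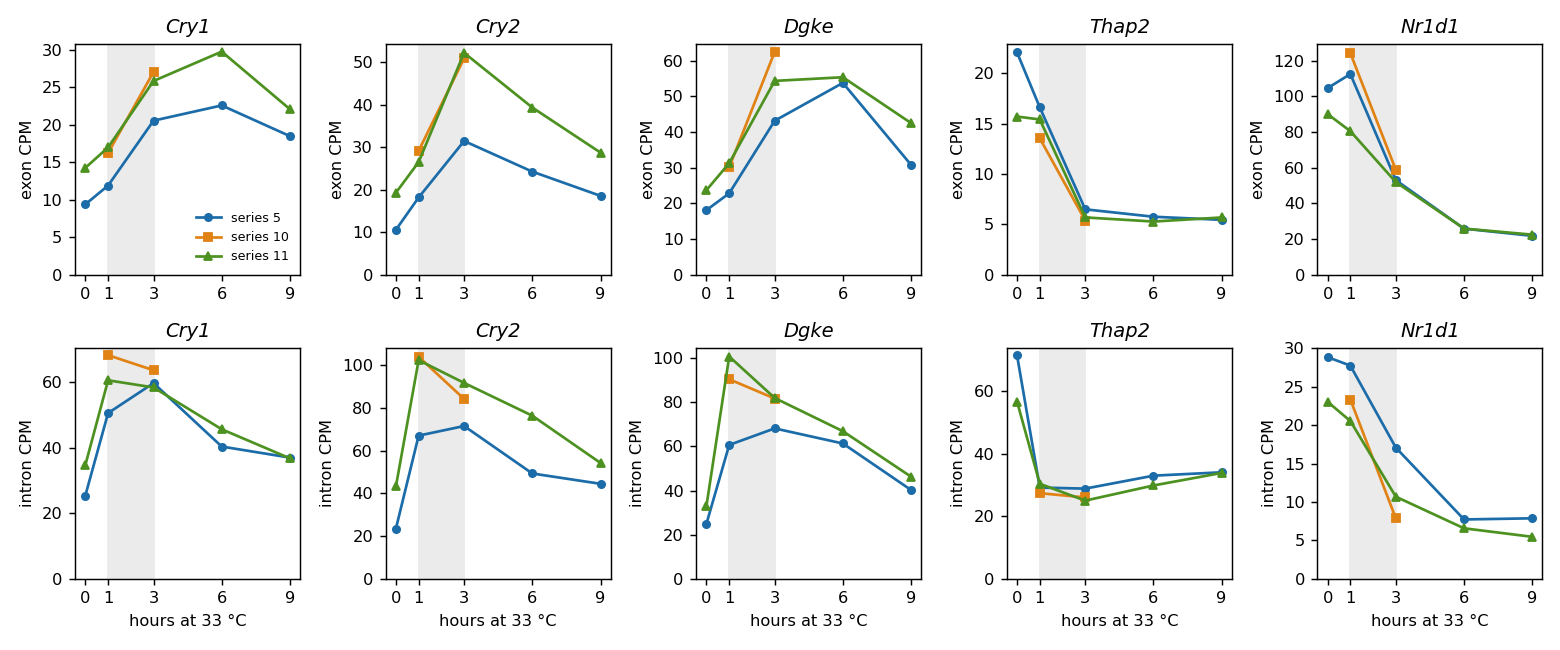
Exon CPM (upper row) and intron CPM (lower row) of 5 genes against hours at 33 °C, 1 line per series, with 1 to 3 h shaded. Introns of Cry1, Cry2, Dgke and Thap2 had their largest step by 1 h, and these genes were chosen for exon calls from 1 to 3 h. Cry2 exons also went from 10.5 to 18.1 CPM in series 5 and from 19.3 to 26.5 CPM in series 11 by 1 h. Nr1d1 exons and introns both went down from 1 to 3 h and again from 3 to 6 h in series 5 and 11.

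Individual genes are given as examples. Dgke introns went from 25.0 to 60.7 CPM in series 5 and from 33.1 to 101 CPM in series 11 between 0 and 1 h, and were at 68.2 and 81.9 CPM at 3 h. Cry2 introns went from 23.5 to 67.1 and from 43.3 to 102 CPM in the first hour, and Cry1 introns from 25.4 to 50.6 and from 34.7 to 60.6 CPM. Thap2 introns dropped from 71.4 to 29.2 and from 56.6 to 30.4 CPM by 1 h, when its exons were at 16.6 and 15.4 CPM against 22.1 and 15.7 CPM at 0 h. In these genes the largest intron step lay before 1 h and the largest exon step after it. The exon part follows from the choice of genes, which were called on exons from 1 to 3 h. For Cry2 in series 5 the exon steps before and after 1 h were close, at 0.755 and 0.776 on the log2 scale. After 3 h, exons of Cry2 declined to 18.5 and 28.7 CPM by 9 h, those of Cirbp went on to 63.4 and 69.4 CPM, and those of Thap2 were between 5.28 and 5.75 CPM at 6 and 9 h. Nr1d1 differed from them: its introns were at 28.8 and 23.0 CPM at 0 h and 27.7 and 20.5 CPM at 1 h, and its exons went on down to 21.8 and 22.4 CPM at 9 h. Over the whole 9 h, Nr1d1 exons also declined in the warming course, from 100 and 97.7 CPM at 0 h to 22.5 and 14.6 CPM in series 2 and 13. Between 1 and 3 h of warming they went from 82.2 to 65.4 CPM in series 2 and from 74.5 to 83.3 CPM in series 13.

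Most of the genes that rose on introns had little exon signal, as 2 of the 17 passed the exon filter. AC122296.2, a processed transcript, went from 1.95, 2.85 and 2.56 to 5.65, 11.6 and 13.4 intron CPM (1.79 ± 0.43), the sole intron call past 2-fold in all series. Gpr39, a zinc-sensing receptor, went from 8.69, 14.6 and 9.21 to 14.3, 39.9 and 30.1 CPM, 2.38-fold on average, and Grip1, a scaffold protein, rose by 1.47 ± 0.55. Ppp1r1c, Lrguk, Nxpe4, Tbc1d10c and Adam22 rose by 0.77 to 1.29 on introns. Grip1 and Adam22 overlap other annotated genes on both strands. Gpr39 and Nxpe4 overlap Lypd1 and Nxpe2 on the other strand, and Tbc1d10c overlaps AC109138.8 on its own. Intron reads of these 5 genes therefore cannot be assigned to them alone. The calls of Grip1, Gpr39, Adam22 and, among the genes that fell, Katnal2 and Nsun3 were lost when introns were scaled by exon totals, and Katnal2 also under TMM scaling and DESeq2 size factors. The chemokine gene Cxcl1 rose on introns by 1.01 ± 0.16, from 4.29, 1.85 and 1.88 CPM to 10.2, 3.73 and 4.33 CPM, with exons at 0.46 ± 0.31. In GENCODE M21 every base of Cxcl1 is exon in some transcript (1875 exon bases and 0 intron bases). What was counted as its introns is therefore unclear.

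Of the 19 genes that fell on introns, 15 were measured on exons, where Nr1d1 alone was called, and several are very long. Celf2, an RNA-binding splicing regulator, went from 2016, 1804 and 1550 to 1335, 1173 and 1017 intron CPM, a difference of -0.61 ± 0.01, while its exons were at 0.06 ± 0.07. Its 943986 intron bases hold 7 other annotated genes, so reads cannot be assigned to Celf2 alone. Supt3h, a subunit of the SAGA co-activator that overlaps Runx2 on the other strand, went from 185, 313 and 318 to 87.7, 169 and 170 CPM (-0.95 ± 0.10). Adam12, a membrane metalloprotease, had -0.88 ± 0.02 on introns and -0.30 ± 0.07 on exons. Elavl2, Katnal2, B230118H07Rik, Mgmt (a DNA repair methyltransferase) and Nsun3 fell by 0.70 to 0.98. The median summed intron length was 85128.5 bases for genes that rose on introns and 55913 for those that fell, against 22252 over all tested. With DESeq2 size factors the intron calls were 18 up and 12 down instead of 17 and 19.

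**Figure D4:**
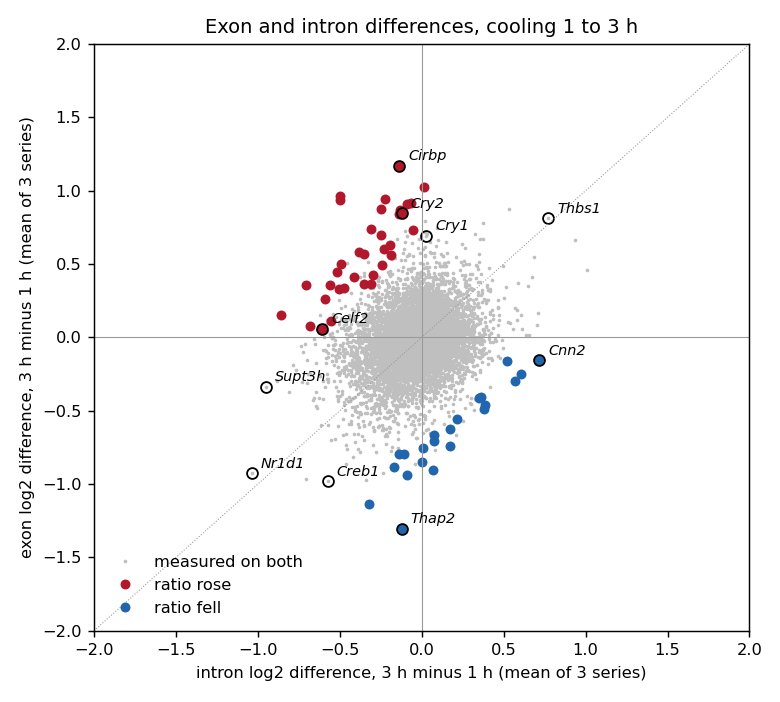
Mean exon log2 difference (vertical axis) against mean intron log2 difference (horizontal axis), 3 h minus 1 h, for the 9605 genes measured on both; red and blue mark genes whose ratio rose (35) or fell (22), black rings mark named genes and the dotted line is equal change. Cirbp lies high with introns near 0, Thap2 low with introns near 0, and Nr1d1 and Thbs1 near the line.

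Exon-to-intron ratios brought out further genes in which the 2 measures moved apart. Of the 35 genes whose ratio rose, 11 were called on exons and 3 on introns in the opposite direction, and the exon difference was the larger part in 24. When introns were scaled by exon totals, 26 of these 35 ratio rises and 10 of the 22 ratio falls were still called. The same scaling kept 7 of the 17 intron rises and 7 of the 19 intron falls. After Cirbp the named members were Zfp710 (1.16 ± 0.15), Bend3 (2.18-fold), Fbxo32, a ubiquitin ligase of muscle atrophy (1.05 ± 0.41), Klf11 (1.01 ± 0.30), Tle4 (1.01 ± 0.15), Dgke (1.00 ± 0.23) and Rab11fip2 (1.00 ± 0.32). Klf11 reached the call mainly through introns, at 14.5, 19.9 and 22.6 CPM and then 12, 8.63 and 9.89 CPM. At 1 h in series 5, Zfp710 had 0.0973 exon reads per intron read, with 6926 exon and 62434 intron bases. Rab11fip2 had 0.175, with 6080 exon and 34691 intron bases. Exon reads of such genes may come largely from unspliced RNA, and that share was not tested. Of the 22 genes whose ratio fell, 10 were called on exons and none on introns. Thap2 (-1.18 ± 0.09), Polk (-0.97 ± 0.06) and Mitd1 (-0.91 ± 0.18) were lower on exons. Cnn2, the actin-binding calponin 2, had exons at -0.16 ± 0.18 and introns at 16.6, 19.9 and 21.6 CPM, then 34.8, 31.0 and 30.2 CPM, giving a ratio difference of -0.87 ± 0.13. Vgll3, Fam198b, Pdzd2 and Ranbp3l had ratio differences of -0.87 to -0.85, and the calls of Fam198b and Ranbp3l were lost when introns were scaled by exon totals.

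The warming course, in different samples, allowed the same genes to be read under the opposite shift. From 1 to 3 h after warming, 80 of 10507 genes rose on exons in both series, 2 and 13 (0.761%), and 54 fell (0.514%). Of the 26 genes that fell on cooling, 24 (92.3%) were higher at 3 h than at 1 h in both warming series, against 36.8% of all genes tested in both. Of these, Senp7, Senp8, Spice1, Zbtb40, Zfp235 and Zkscan3 were past 1.5-fold in both, and none was called falling. Of the 17 genes that rose on cooling and were measured in both, 9 (52.9%) were lower in both warming series, against 31.6% of all genes, and 3 were called falling. Those 3 were Cirbp (-1.02 and -1.77), Rab11fip2 (-0.90 and -1.04) and Znf512b (-0.61 and -0.73). Others that rose on cooling did not mirror: Tle4 had 0.16 and 0.16 on warming, Cry1 0.07 and 0.35, and Zfp710 -0.01 and -0.02. Thap2 had 0.89 and 0.49 and Creb1 0.57 and 0.56, whereas Btg2, which fell on cooling, was lower on warming too (-0.56 and -1.13). Nr1d1 had -0.33 and 0.16.

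**Figure D5:**
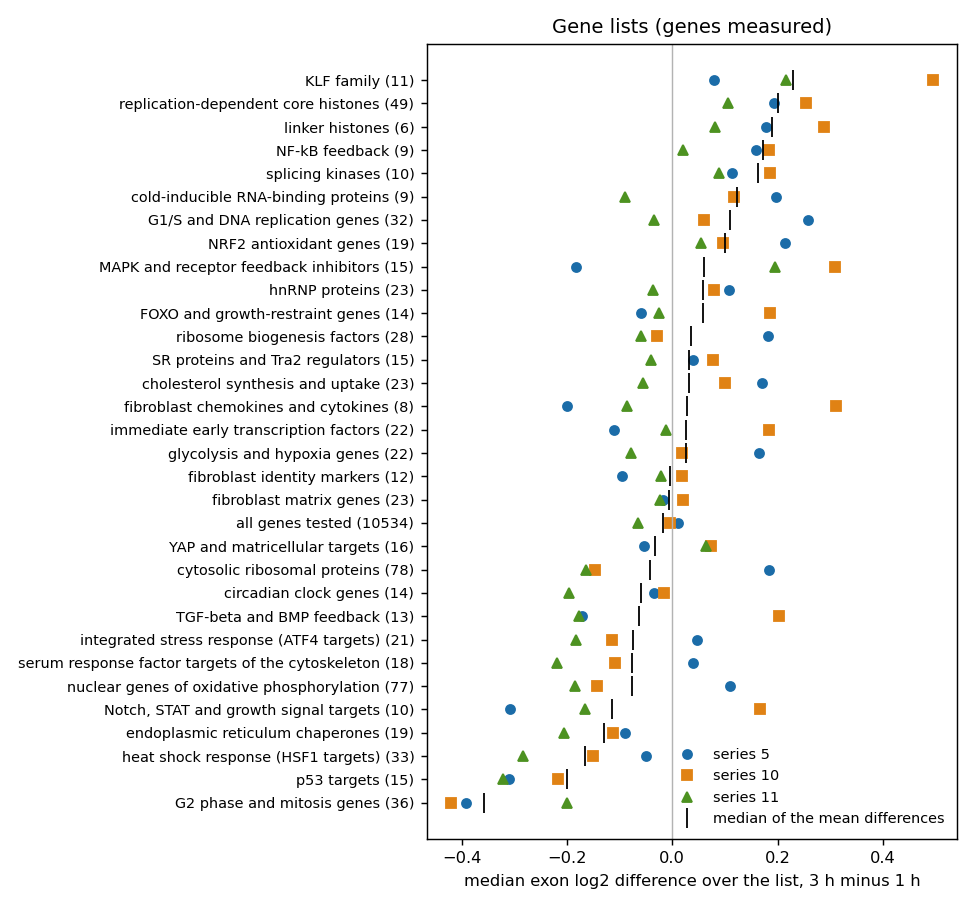
Median exon log2 difference, 3 h minus 1 h, over each gene list with at least 5 measured genes (number in brackets), by series, with the median of the mean differences as a bar. G2 phase and mitosis genes have the lowest bar (-0.36) and lie below 0 in all 3 series, and ribosomal protein genes split by series.

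Wider gene groups differed by less than the call rule, some of them mostly in 1 direction. Beside the lists, 16.7% of all tested genes were higher at 3 h in all 3 series at any size and 23.2% were lower. Of 36 G2 phase and mitosis genes, none was called and 30 were lower in all 3 series, with a list median of -0.36 and series medians of -0.39, -0.42 and -0.20. Aurka, the mitotic kinase, had 233, 156 and 146 CPM at 1 h and 142, 88.6 and 113 CPM at 3 h (-0.63 ± 0.24), and the kinesin Kif20b had -0.64 ± 0.14. Of 49 replication-dependent core histone genes, Hist1h2an rose and 34 were higher in all 3 series, with a median of 0.20. Histone copies are nearly identical, so the assignment of reads among them is uncertain. Of 6 linker histone genes, 4 were higher in all series (median 0.19). Of 32 G1/S and DNA replication genes, 9 were higher and 2 lower in all series.

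Heat shock, endoplasmic reticulum chaperone and p53 target genes had negative medians in all 3 series, and Btg2 alone among them was called. Of 33 heat shock genes, 18 were lower in all 3 series and 3 higher, with a median of -0.17. Hspa8, the constitutive HSP70 chaperone, went from 1898, 1429 and 1519 CPM to 1414, 857 and 915 CPM (-0.63 ± 0.18), and its co-chaperone Dnajb1 had -0.57 ± 0.07. Chordc1, a partner of HSP90, had -0.78 ± 0.29, short of the rule in series 5 (-0.44). Heat-inducible Hspa1b had -0.69 ± 0.16 on cooling and -1.02 and -0.01 on warming. Of 19 endoplasmic reticulum chaperone genes, 11 were lower in all series and none higher (median -0.13), with warming medians of 0.33 and 0.45. Of 21 ATF4 target genes, 7 were lower and 3 higher in all series, against 23.2% and 16.7% of all genes, with series medians of 0.05, -0.11 and -0.18. Among the 7 were the glutathione-degrading enzyme Chac1 (-0.77 ± 0.26) and the transcription factor Ddit3 (-0.50 ± 0.18). Of 15 p53 targets, Btg2 fell and 9 were lower in all series (median -0.20). The cell cycle inhibitor Cdkn1a had -0.75 ± 0.31 and the p53 ubiquitin ligase Mdm2 -0.60 ± 0.11. In series 10 Cdkn1a went from 127 to 75.1 CPM, and series 11 kept it from the call (-0.43).

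Some further lists were higher on balance with no calls, and others split by series. For comparison, 16.7% of all tested genes were higher and 23.2% lower in all 3 series. Of 22 immediate early genes, Nr4a1 rose and Btg2 fell. Egr1 had 10.3, 11 and 5.38 CPM at 1 h and 4.59, 49.2 and 31.2 CPM at 3 h, so it was lower in series 5 (-1.09) and higher in series 10 and 11 (2.11 and 2.43). Of 11 KLF family genes, 7 were higher and none lower in all series and none was called, with series medians of 0.08, 0.50 and 0.22. Of 9 NF-kB feedback genes 6 were higher and 1 lower in all series (median 0.17), and of 19 NRF2 antioxidant genes 9 were higher and 1 lower (median 0.10). None of the 78 cytosolic ribosomal protein genes moved the same way in all 3 series, and their medians were 0.18, -0.15 and -0.16 in series 5, 10 and 11. The median of their mean differences was -0.04, and 0.02 without series 11. Among the 15 SR protein genes, Srsf5 was higher in every series, while Tra2a (-0.50 ± 0.27) and Srsf7 (-0.45 ± 0.24) were lower, and none was called. Fibroblast matrix genes had a median of -0.01 (0.01 under TMM scaling), with 1 of 23 higher and 5 lower in all series.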

How the data were processed

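Ribosome-depleted, strand-specific paired-end total RNA libraries of NIH3T3 cells were deposited as 1 sample per time. The deposited files hold estimated counts of exon and intron reads per gene, as the values and headers show. STAR, bedtools and the mm10 build are named in the submitters' processing notes, while the labels name neither annotation nor strand setting for counting. Columns were scaled to CPM by their own exon or intron total. Genes with a mean of at least 2 CPM over the 6 columns were kept, and differences were taken on log2(CPM + 0.5) within series 5, 10 and 11. Fold changes of low genes are understated on this scale. Same-numbered columns deviated together across genes (r = 0.72 to 0.86 for exons, 0.70 to 0.83 for introns), so the series were treated as pairs. Columns of a sample differed beyond counting error. Genes named are Cirbp, Rbm3, up to 15 called genes per direction on exons (mean of at least 5 CPM), 8 on introns, 8 on ratios, and 4 per list of 38. Members and lists were chosen with earlier results of these data known. The count of list members moving the same way at any size was added after values were seen, as were called genes named outside the rule. Estimated counts were rounded for edgeR 4.0.16 and DESeq2 1.42.0, used as alternatives with Benjamini-Hochberg adjustment and tested on simulated data. The gene annotation was GENCODE M21, which matched 36308 of 38087 genes (95.3%). Promoters came from RefSeq (GRCm38.p6) and covered 27025 genes.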

Additional observations from a re-analysis of the deposited data

Results flagged for a closer look

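Between 1 and 3 h, 9 genes moved one way in every cooling series and the opposite way in both warming series, each by at least 1.5-fold. The difference between the courses itself was not tested, and cooling and warming were in separate columns. On the log2 scale, cooling minus warming was 2.57 for Cirbp (1.17 against -1.40), 1.83 for Rab11fip2 and 1.45 for Znf512b. It was -1.74 for Zbtb40, -1.57 for Senp7, -1.74 for Senp8, -1.67 for Spice1, -1.53 for Zfp235 and -1.27 for Zkscan3.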

How the results depend on the processing

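The exon calls (21 rose, 26 fell) were within 1.5 times these counts under TMM scaling, DESeq2 size factors, a pseudocount of 0.1 and a minimum of 0.5 CPM. TMM scaling kept all 21 that rose and 21 of the 26 that fell. None of the named genes changed direction in a measure in which it was called. Medians of 11 of the 31 lists changed sign under at least 1 alternative, all of them 0.06 or smaller in size, as did 3 uncalled differences of named genes (Klf11 and Mgmt exons and Cirbp introns, each without 1 series). The alternatives moved list medians by more than the spread between series 8 times (p53 targets, splicing kinases, YAP targets and matrix genes) and gene values 2 times (Adam12 and Vgll3 exons, columns summed). The 2-fold rule left 0 exon genes that rose and 1 that fell, 1 and 0 intron genes, and 2 and 1 ratio genes; the lower fold rule gave 98 and 195, 77 and 190, and 225 and 178. Without a filter 33 exon genes rose, 28 intron genes rose, and 63 ratios rose and 40 fell. A minimum of 10 CPM left 14 exon genes that fell, 6 intron genes that rose and 19 ratios that rose, and a minimum of 0.5 CPM gave 26 intron genes and 53 ratios that rose. DESeq2 size factors gave 12 intron genes that fell, and scaling introns by exon totals gave 11 that rose and 9 that fell, of which 7 and 7 were among the 17 and 19; it gave 33 and 20 ratios, of which 26 and 10 were among the 35 and 22. Columns summed per time gave 64 and 88 on exons, 51 and 71 on introns, and 123 and 81 on ratios. Leaving out 1 series, which leaves fewer series to pass, gave 25 to 50 exon genes that rose and 43 to 63 that fell, 24 to 43 and 25 to 78 intron genes, and 46 to 122 and 32 to 63 ratios. The largest exon count that rose came without series 5 (50), the next without series 11 (35). The edgeR fit with the replicate block called 149 and 185 exon genes and 179 and 237 intron genes; without the block it called 0, with 465 exon and 396 intron genes at an unadjusted p under 0.05. DESeq2 with the block called 193 and 219 on exons, with 15 of the 21 and 25 of the 26 (it gave no adjusted p for the other 6 and 1), and 110 and 122 on introns. All estimates rest on 1 sample per time, and at 2 CPM an intron column holds 38.4 to 46.9 reads.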
